A study of Mus musculus with 6 samples.

Results

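Nr1d1, Nr1d2 and Rora encode the nuclear receptors REV-ERBα, REV-ERBβ and RORα of the circadian clock. They were chosen by gene symbol, and all 3 members have 1 row each among the 32285 genes of the deposited count matrices. Each was followed as unique molecular identifiers (UMIs, 1 for each RNA molecule counted) summed over the cells of a class in a library. The study collected mononucleated cells from the tibialis anterior muscles, at the front of the lower leg, of both hindlimbs of wildtype mice, and live cells that excluded propidium iodide were sorted and loaded on droplets for single-cell 3′ RNA sequencing. There were 6 groups of 1 library each. The muscles were uninjured (day 0) or had been injured with cardiotoxin, a venom toxin that kills muscle fibres, and were taken on day 1 or day 3. On each day 1 collection was at ZT4 and 1 at ZT16, where ZT (zeitgeber time) gives the hour after the lights come on. The labels give neither age, sex nor strain, nor how many mice went into a library, and they call the cells skeletal muscle cells, whereas the libraries held the cell classes described here.

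REV-ERBs and RORs bind the same DNA elements, called ROREs, which hold the nuclear receptor word AGGTCA behind a stretch rich in A and T. RORs recruit coactivators there, and REV-ERBs, which bind haem as their ligand, recruit the NCoR and HDAC3 corepressor complex, so that both act in opposition on Arntl (the gene of BMAL1), Npas2 and Cry1. BMAL1 with CLOCK or NPAS2 in turn activates Nr1d1 and Nr1d2 through E-boxes, and the PER and CRY proteins repress that step. In muscle and in macrophages REV-ERBs are also known as repressors of metabolic and inflammatory genes, and RORα is needed for the development of type 2 innate lymphoid cells.

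With 1 library in each group there is no replicate error, so no test between conditions was possible. Each day was sampled only at ZT4 and ZT16. A ratio of these times cannot tell the height of a daily rhythm from the hour of its peak. All intervals are 95% limits of counting error alone, from exact Poisson or binomial limits, and a difference between libraries can include differences between animals, dissections or captures. The 6 libraries held 72747703 to 132221721 UMIs in 68724 barcodes, of which 58469 cells were kept, with medians of 3172 to 11128 UMIs per cell. Pairs of libraries shared 18 to 52 barcodes, 0.190% to 0.509% of the smaller library. The kept cells formed 36 clusters, of which 32 took the name of 1 of 14 classes from marker genes and 4, with 3165 cells, did not. Values are in CPM, the UMIs of a gene per 1000000 UMIs of the class in that library, and a log2 value is the log2 ratio of 2 CPM values. A gene was compared in a class only with at least 50 cells in both libraries and at least 20 UMIs of the member in both together, and differences of at least 1.5-fold were counted.

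The genes lie on 3 chromosomes of GRCm38. Nr1d1 (ENSMUSG00000020889) is at chr11:98767932-98775333 on the minus strand and spans 7402 bases. Nr1d2 (ENSMUSG00000021775) is at chr14:18204054-18239127, also on the minus strand, with 35074 bases. Rora (ENSMUSG00000032238) is at chr9:68653786-69388246 on the plus strand and spans 734461 bases. The 3′ end of Nr1d1 overlaps that of Thra, the thyroid hormone receptor α gene, which runs the other way: 263 of the 3077 exon bases of Nr1d1, at chr11:98768157-98768419, are also Thra exon. Whether the counting used strand is not stated, so reads there cannot be assigned with certainty, and Thra is given beside Nr1d1.

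The 250 bases before the RefSeq start sites of both REV-ERB genes are printed because the 2 receptors differed in the direction of their time difference, described further on. They are from RefSeq on GRCm38.p6 and read 5′ to 3′ on the strand of the gene, at chr11:98775378-98775627 for Nr1d1 and chr14:18239107-18239356 for Nr1d2. Capitals mark a match to the E-box CACGTG, to the receptor word AGGTCA or to AAGGTCA, which contains it, on either strand.
Nr1d1: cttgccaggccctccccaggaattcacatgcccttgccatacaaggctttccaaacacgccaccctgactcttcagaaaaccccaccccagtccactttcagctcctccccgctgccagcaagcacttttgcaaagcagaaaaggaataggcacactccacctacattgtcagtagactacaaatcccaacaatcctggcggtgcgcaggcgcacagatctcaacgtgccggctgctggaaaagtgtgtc
Nr1d2: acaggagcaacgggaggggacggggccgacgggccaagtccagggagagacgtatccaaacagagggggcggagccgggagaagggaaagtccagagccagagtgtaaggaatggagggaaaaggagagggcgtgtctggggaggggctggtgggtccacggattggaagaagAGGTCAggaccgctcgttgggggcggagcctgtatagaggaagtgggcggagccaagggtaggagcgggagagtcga
Arntl, 28 bases around a match (chr7:113207531-113207558, plus strand): aggcagaaagtAGGTCAgggacggaggt
The Nr1d2 window held 1 AGGTCA, at base -77 from the start site, and the Nr1d1 window held none of the 3 words. Arntl is shown as the best known target of these receptors. RefSeq gives 2 start sites for it: the AGGTCA is at base 32 counted from the downstream one, and the window of the upstream one, which ends before that word, held no match. The Rora window of 300 bases held no match either. Among 32851 RefSeq promoters of that length, 16.3% held AGGTCA, 4.72% AAGGTCA and 7.15% CACGTG. A match is a description of letters and not of binding, and enhancers and introns were not searched. Only these exact words were searched, so a window without a match can still hold an element with other letters.

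Among the named classes of uninjured muscle, the members were measured mainly in stromal, vascular and muscle cells. An unnamed cluster led by Lyve1 and Cd163, genes of resident macrophages, is outside the orders given here. At ZT4 and ZT16 it held Nr1d1 at 25.4 and 31.6 CPM, Nr1d2 at 32.7 and 68.8 CPM and Rora at 20.6 and 14.0 CPM. Nr1d1 at ZT4 reached 154 CPM in tenocyte-like cells, 117 CPM in myogenic-like and in fibro-adipogenic-like cells, 115 CPM in mural-like and in glial-like cells and 97.9 CPM in endothelial-like cells. In that order neighbouring intervals overlapped, but tenocyte-like cells (125 to 187 CPM) lay above fibro-adipogenic-like cells (113 to 121 CPM), and these above endothelial-like cells (91.3 to 105 CPM). Mature muscle-like cells stood apart below them at 66.8 CPM, and the mast-like (17.7 CPM), dendritic-like (5.68 CPM) and B cell-like (2.44 CPM, 1 UMI) classes were lowest. The mature muscle-like class was named from genes of muscle fibres, although mononucleated cells were sorted. Whether its barcodes held whole cells was not tested. At ZT16 the order was different. Fibro-adipogenic-like cells (60.1 CPM) and glial-like cells (59.4 CPM) were then highest, and endothelial-like cells were at 10.3 CPM (8.50 to 12.4), an interval that overlapped those of the mast-like (7.97 CPM, 2 UMIs) and dendritic-like (5.31 CPM, 2.97 to 8.76) classes.

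Nr1d2 at ZT4 was 66.3 CPM in mural-like, 60.0 CPM in glial-like, 44.0 CPM in fibro-adipogenic-like, 43.3 CPM in endothelial-like, 42.7 CPM in tenocyte-like, 39.6 CPM in myogenic-like and 30.4 CPM in mature muscle-like cells. Each of these neighbours overlapped. At ZT16 fibro-adipogenic-like cells (109.6 CPM) and mural-like cells (99.7 CPM) led and overlapped each other, and endothelial-like cells stood apart below tenocyte-like cells.

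Rora had the widest range among classes. It was highest in fibro-adipogenic-like cells at both times, at 202 CPM and 270.1 CPM, apart from every other class. The mast-like cluster followed at 153 CPM and 195 CPM. Myogenic-like (110.4 and 119 CPM), tenocyte-like (97.6 and 175 CPM), mural-like (94.7 and 95.9 CPM) and glial-like cells (93.9 and 71.3 CPM) came next. Endothelial-like cells (43.8 and 46.7 CPM) and mature muscle-like cells (34.6 and 36.5 CPM) stood apart below these, and dendritic-like cells held 2.39 CPM and 2.13 CPM from 8 and 6 UMIs.

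**Figure D1:**
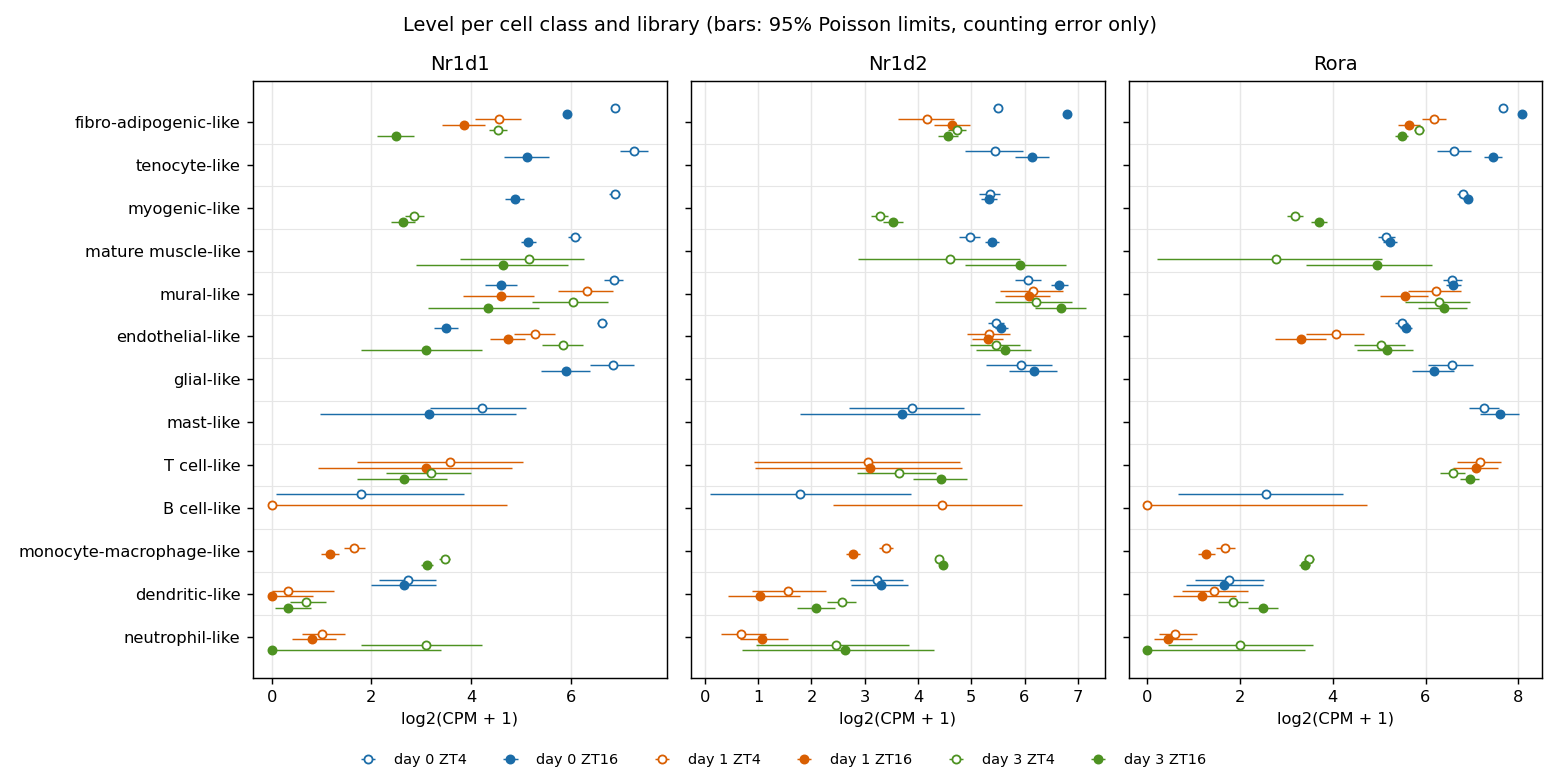
Level of Nr1d1, Nr1d2 and Rora in 13 cell classes, as log2(CPM + 1) of summed UMIs with exact 95% Poisson limits, where open symbols are ZT4, filled symbols ZT16, blue day 0, orange day 1 and green day 3. Nr1d1 at ZT16 on day 0 is lowest among non-immune classes in endothelial-like cells (10.3 CPM), and Rora is highest in fibro-adipogenic-like cells (270.1 CPM).

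Nr1d1 was lower at ZT16 than at ZT4 in uninjured muscle in 7 of 8 classes compared, and by very different amounts. The 7 intervals lay below 0 and the median log2 value over the 8 classes was -1.51. Unnamed clusters are outside this count. The Lyve1-led one had a log2 value of 0.31 (-0.01 to 0.64) and an Sfrp5-led one of -0.83 (-2.09 to 0.30). The share of all genes at least 1.5-fold lower in the same class was 12.3% in endothelial-like, 9.39% in mural-like, 7.26% in tenocyte-like, 7.58% in myogenic-like, 5.8% in fibro-adipogenic-like, 4.91% in mature muscle-like and 7.71% in glial-like cells. In endothelial-like cells 803 UMIs at ZT4 stood against 113 at ZT16, a log2 value of -3.24 (-3.54 to -2.96), and 0.0782% of genes measured there had a lower value. Mural-like cells, which wrap vessels as pericytes or smooth muscle, had 115 CPM and 23.4 CPM, a log2 value of -2.29 (-2.70 to -1.92).

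Muscle stem cells and tendon cells had a difference of similar size. Myogenic-like cells, almost all in the cluster with Pax7, Myf5 and Chodl, held 117 CPM at ZT4 and 28.4 CPM at ZT16, a log2 value of -2.05 (-2.28 to -1.83). Tenocyte-like cells held 154 CPM and 34.1 CPM, a log2 value of -2.17 (-2.74 to -1.63). The difference was smaller in fibro-adipogenic-like cells (-0.96, -1.05 to -0.88), in mature muscle-like cells (-0.96, -1.16 to -0.75) and in glial-like cells (-0.95, -1.63 to -0.28). In dendritic-like cells the interval held 0 (-0.09, -1.18 to 0.96, from 19 and 15 UMIs).

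Clusters inside a class differed too. Among fibro-adipogenic-like cells, those led by Pi16, a marker of the adventitial state, went from 101 CPM at ZT4 to 30.7 CPM at ZT16 (log2 -1.72, -1.93 to -1.52). Those led by Smoc2 held 126 CPM and 73.7 CPM (log2 -0.77, -0.87 to -0.68), and the intervals do not overlap. The endothelial-like clusters were alike in this respect: 97.6 and 10.2 CPM in capillary cells with Aqp1 and Gpihbp1, and 153 and 14.3 CPM in those with Stmn2 and Edn1. The shallow Rflnb-led cluster (60.5 and 4.85 CPM) and a cluster that also held muscle transcripts (105 and 11.8 CPM) had differences in the same direction, and without them the class value was -3.23. The Rgs5-led mural cluster held 126 and 26.0 CPM and the Tagln-led one, with smooth muscle genes, 68.5 and 8.63 CPM.

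Thra, the overlapping neighbour, was 138 CPM at ZT4 and 56.9 CPM at ZT16 in endothelial-like cells, 183 and 89.1 CPM in mural-like cells and 169 and 99.6 CPM in tenocyte-like cells. In fibro-adipogenic-like cells it held 199.9 and 155 CPM and in myogenic-like cells 165 and 143 CPM. Its median over 8 classes was -0.61, with 4 of 8 at least 1.5-fold lower, while the other neighbours of Nr1d1 had medians of -0.35 (Med24), 0.17 (Msl1) and 0.01 (Casc3). Whether reads of one gene were counted for the other was not tested.

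Nr1d2 differed the other way in several classes. Whether the REV-ERB genes peaked at different hours could not be read from ZT4 and ZT16 alone. It was at least 1.5-fold higher at ZT16 in 3 of 8 classes of uninjured muscle, against 8.67% of all genes in fibro-adipogenic-like, 13.3% in tenocyte-like and 7.54% in mural-like cells. Fibro-adipogenic-like cells had 44.0 CPM at ZT4 and 109.6 CPM at ZT16, a log2 value of 1.32 (1.22 to 1.41), where Nr1d1 was lower. Tenocyte-like cells had a log2 value of 0.69 (0.08 to 1.38) and mural-like cells of 0.59 (0.29 to 0.89). In mature muscle-like cells it was 0.43 (0.18 to 0.67), under 1.5-fold but with an interval above 0. In myogenic-like cells (-0.01, -0.27 to 0.25) and endothelial-like cells (43.3 and 46.4 CPM, log2 0.10), where Nr1d1 was far lower at ZT16, Nr1d2 stayed close to its ZT4 level. The median over classes was 0.33. Smoc2-led cells went from 43.2 to 121 CPM and Pi16-led cells from 46.0 to 85.4 CPM, so that the cluster with the smaller Nr1d1 difference had the larger Nr1d2 difference.

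Rora had small time differences in uninjured muscle, with a median log2 value of 0.10 over 8 classes. It was at least 1.5-fold higher at ZT16 in 1 class, tenocyte-like cells (97.6 and 175 CPM, log2 0.84, 0.44 to 1.27), where 13.3% of all genes were. In fibro-adipogenic-like cells the value was 0.42 (0.37 to 0.47) from 5831 and 7029 UMIs, a narrow interval above 0 but under 1.5-fold. Smoc2-led cells (216 and 302 CPM) carried most of it, and Pi16-led cells held 177 and 199 CPM. Myogenic-like (0.11), endothelial-like (0.09), mature muscle-like (0.08) and mural-like cells (0.02) had values near 0.

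**Figure D2:**
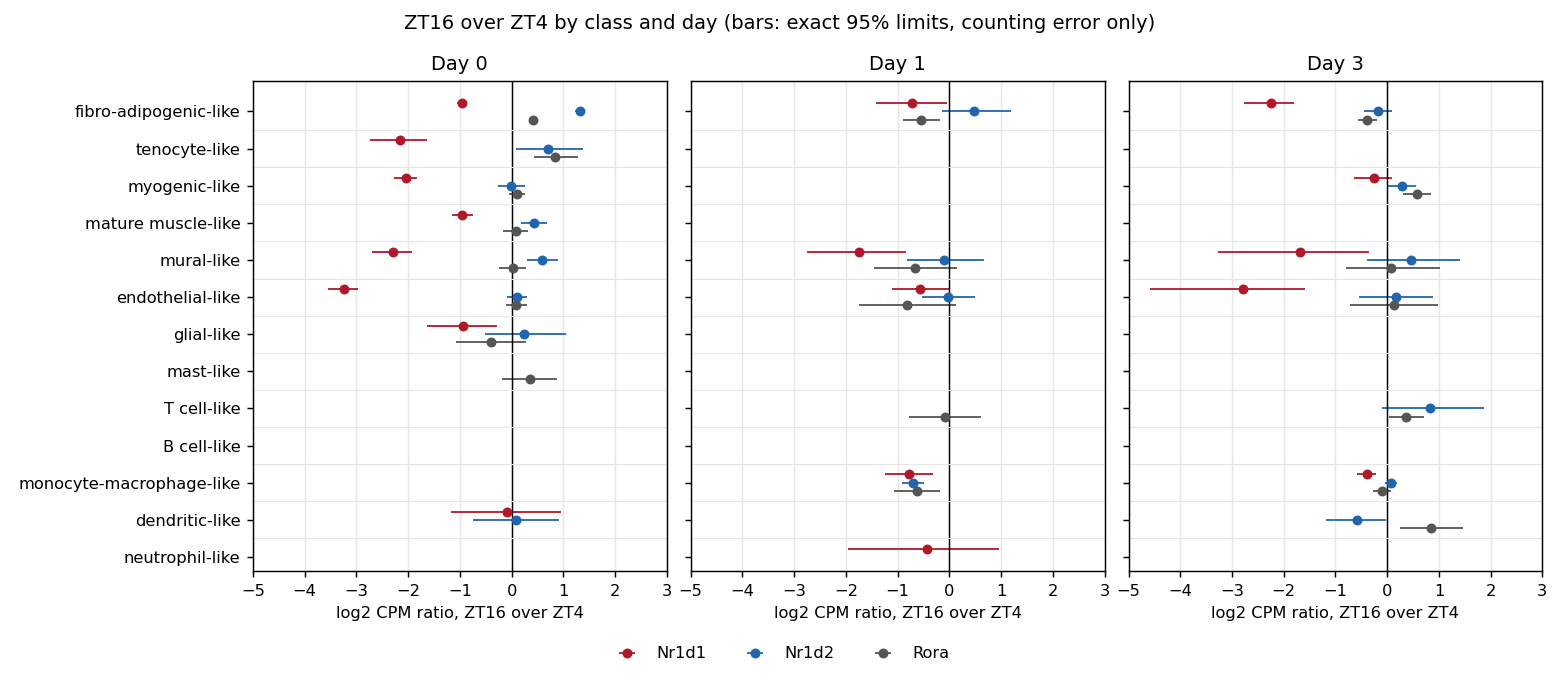
Log2 ratio of CPM at ZT16 over ZT4 for Nr1d1 (red), Nr1d2 (blue) and Rora (grey) by cell class, on days 0, 1 and 3, with exact 95% limits of counting error. On day 0 Nr1d1 lies between -3.24 and -0.09 and Nr1d2 between -0.01 and 1.32. In fibro-adipogenic-like, tenocyte-like, mural-like and mature muscle-like cells the intervals of the 2 receptors lie on opposite sides of 0.

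S phase and G2/M genes also differed between the uninjured libraries: 12 of 12 were at least 1.5-fold higher at ZT16 in myogenic-like cells (median log2 4.81) and 9 of 12 in fibro-adipogenic-like cells (median 2.36). Of all genes, 9.01% and 8.67% were higher in these classes. Over classes the largest medians were those of Mki67 (3.01), Pclaf (2.97) and Ube2c (2.5). With cycling cells left out, Nr1d1 in myogenic-like cells had a log2 value of -1.91, Nr1d1 in fibro-adipogenic-like cells -0.96 and Nr1d2 there 1.32. Of 13 immediate early and dissociation genes, 0 passed 1.5-fold in either direction in fibro-adipogenic-like, myogenic-like and mural-like cells. In these classes 7.54% to 9.01% of all genes were higher and 5.8% to 9.39% lower. In endothelial-like cells 2 of the 13 were higher, where 5.01% of all genes were. Over 9 classes Atf3 was higher in 3, Ier3, Egr1 and Fosb in 2 each and Jun in 1. Hspa1a, Hspa1b, Junb and Zfp36 were lower in 1 class each. The largest medians over classes were -0.28 (Hspa1a), 0.27 (Jund) and 0.22 (Dusp1). Barcodes over the mitochondrial limit were 10.8% at ZT4 and 11.7% at ZT16.

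The differences were spread over many cells. After each cell was thinned to 1000 UMIs, Nr1d1 was seen in 9.57% of endothelial-like cells at ZT4 and 1.12% at ZT16 (21.8% and 2.99% without thinning). In myogenic-like cells these shares were 12.3% and 3.48%, in mural-like cells 12.6% and 2.26%, and in fibro-adipogenic-like cells 11.2% and 5.46%. Nr1d2 was seen in 4.19% and 10.7% of thinned fibro-adipogenic-like cells (31.4% and 61.3% without thinning), and Rora in 17.6% and 22.1% (72.7% and 80.1%). As a background, B cell-like cells at ZT4 on day 0 gave 0 of 120 thinned cells with Nr1d1, which allows a share of up to 2.5% by 3 counts of the total and 3.03% by the exact binomial limit. They had a median of 3235.5 UMIs, against 2601 in endothelial-like and 9488 in fibro-adipogenic-like cells. The thinned endothelial-like share at ZT16 lay under both bounds and near the 1.31% and 1.49% of dendritic-like cells. At this depth it could not be told from this background, whose bounds are wide because the class had 120 cells. Whether dendritic-like cells are free of Nr1d1 was not tested. The thinned shares of neutrophil-like cells on day 1, given further on, were lower.

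**Figure D3:**
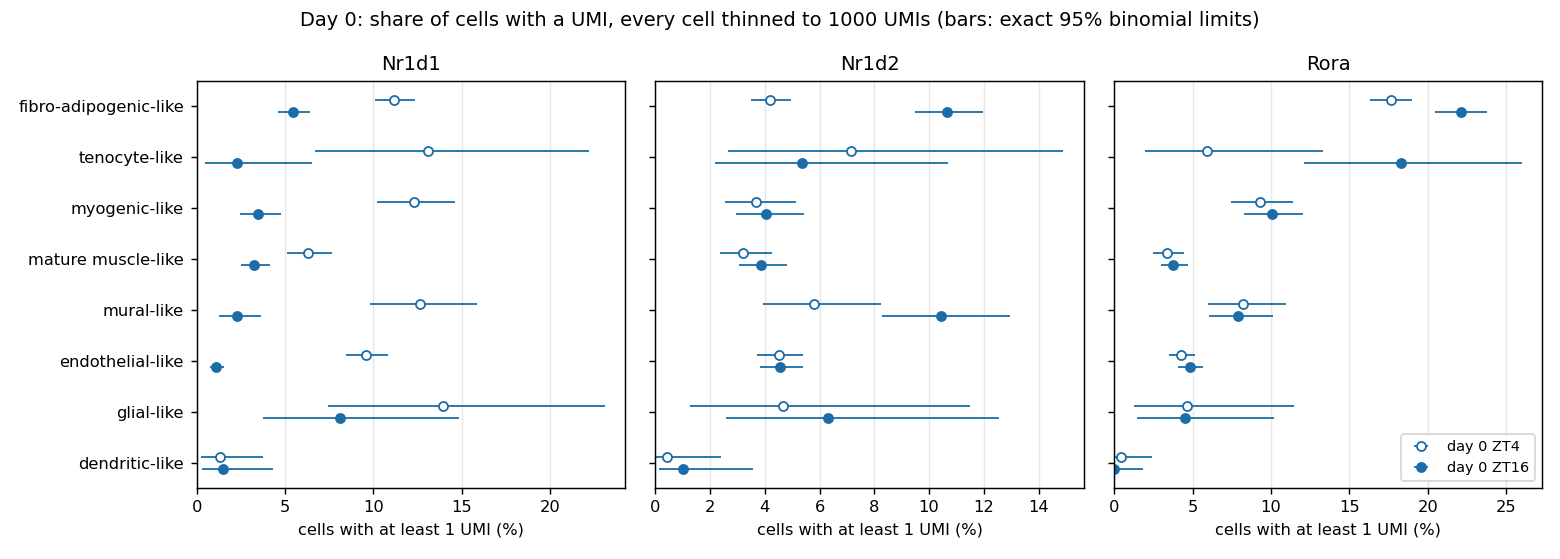
Share of cells with at least 1 UMI of each member in 8 classes of uninjured muscle at ZT4 and ZT16, in percent, after every cell was thinned to 1000 UMIs, with exact 95% binomial limits. For Nr1d1 the ZT16 share is below the ZT4 share in 7 classes, and 1.12% in endothelial-like cells, and for Nr1d2 it is 10.7% against 4.19% in fibro-adipogenic-like cells.

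The partners of the members in the clock loop also differed between times in uninjured muscle. Arntl, repressed by REV-ERBs and activated by RORs, was lower at ZT16 in 5 of 5 classes where it could be measured (median log2 -2.29). In fibro-adipogenic-like cells it went from 34.1 to 3.07 CPM (log2 -3.46, -3.82 to -3.14), in mural-like cells from 41 to 2 UMIs, and in myogenic-like cells from 10.1 to 4.86 CPM. Npas2, the CLOCK paralogue, was 22.8 and 1.31 CPM in fibro-adipogenic-like cells (log2 -4.10) and 11.4 and 3.58 CPM in myogenic-like cells. Clock itself had a median of -0.13 over 8 classes.

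Of the repressors, Per2 was higher at ZT16 in 5 of 5 classes (median log2 4.07), Cry1 in 7 of 7 (1.77), Per1 in 6 of 7 (1.45) and Per3 in 7 of 7 (1.12), with Cry2 at 0.22. Among E-box and D-box output genes, Ciart (median 2.08, 2 of 3 classes higher), Hlf (1.64, 6 of 6) and Usp2 (1.22, 5 of 6) had the largest medians. Tef, a PAR bZIP factor, was higher in 6 of 8 classes. Its paralogue Dbp was higher in 6 of 8 classes and lower in endothelial-like cells (72.6 and 36.7 CPM, log2 -0.98, -1.17 to -0.80), the class with the largest Nr1d1 difference. Nfil3, a RORE target, was lower in fibro-adipogenic-like cells (log2 -0.81) and 50.5 and 74.9 CPM in myogenic-like cells (log2 0.57). All of the fibro-adipogenic medians stand beside 0.07 over all genes there: -3.46 for the 3 clock activators, 1.5 for the 5 Per and Cry genes and 1.60 for the 8 output genes. For the 5 known RORE targets the median was -0.81, with 3 lower and 1 higher, Cry1, where 5.8% of all genes were lower and 8.67% higher.

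**Figure D4:**
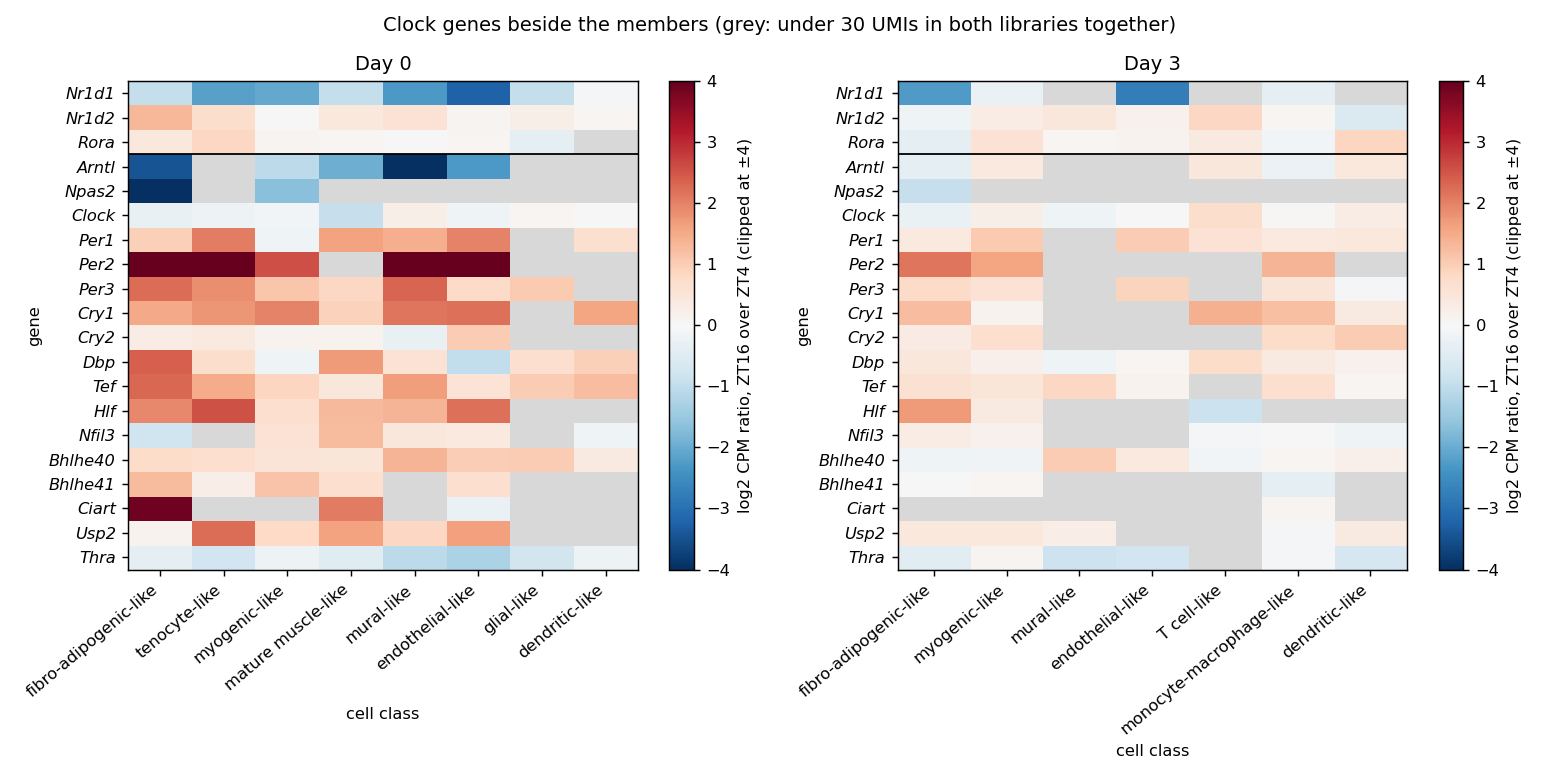
Heat map of log2 CPM ratios, ZT16 over ZT4, for the members, other clock genes and Thra by class on days 0 and 3, with colours clipped at 4 in both directions and grey where both libraries together held under 30 UMIs. On day 0 Arntl and Nr1d1 are lower and Per2 and Cry1 higher at ZT16 in the classes measured, and on day 3 Arntl is within 1.5-fold in 5 of 5 classes, while Nr1d1 is at -2.25 in fibro-adipogenic-like and -2.78 in endothelial-like cells.

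Genes of proteins that work with these receptors mostly stayed within 1.5-fold. Of 6 genes of the REV-ERB corepressor complex, 0 passed 1.5-fold in fibro-adipogenic-like, endothelial-like, mural-like and myogenic-like cells on day 0. Most genes stayed within it too: in these classes 5.01% to 9.01% of all genes were higher and 5.8% to 12.3% lower. Ncor1 held 138 and 160 CPM in fibro-adipogenic-like cells, and Hdac3 28.6 and 29.2 CPM. Medians over classes were 0.29 for Tbl1xr1 and -0.08 for Hdac3. Ubiquitin ligases that degrade REV-ERBα had medians of 0.33 (Siah2), -0.15 (Huwe1) and 0.06 (Mycbp2), and 0 of 4 passed in the same 4 classes. ROR coactivators (Ncoa3 0.41, Ppargc1b -0.22, Ep300 0.20) passed in 1 of 7 in fibro-adipogenic-like and 1 of 6 in mural-like cells. Of 10 genes that make or break down haem, the REV-ERB ligand, 0 passed in fibro-adipogenic-like cells and 1 was lower in endothelial-like cells (medians 0.36 for Cpox, -0.34 for Ppox and 0.21 for Alas1).

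On day 1 after injury the time difference of Nr1d1 was smaller in endothelial-like cells and could not be read in the myogenic class, which had under 50 cells. Nr1d1 was at least 1.5-fold lower at ZT16 in 3 of 5 classes (median -0.73), where 11.8% of all genes in mural-like, 16.2% in fibro-adipogenic-like and 8.47% in monocyte-macrophage-like cells were. Mural-like cells held 79.1 and 23.1 CPM (log2 -1.76, -2.76 to -0.84), and fibro-adipogenic-like cells 22.5 and 13.5 CPM (log2 -0.73, -1.41 to -0.05). Endothelial-like cells held 37.9 CPM and 25.8 CPM, log2 -0.56 (-1.11 to 0.01). That differs from the day 0 value of this class by 2.68 (2.08 to 3.29), but the cells were no longer in the same clusters. In place of the capillary and Stmn2-led clusters of day 0, an Apln-led cluster held 515 of the 533 endothelial-like cells at ZT16 and 260 of 266 at ZT4.

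On day 3 Nr1d1 was again far lower at ZT16 in stromal and vascular cells. It was at least 1.5-fold lower in 3 of 5 classes, with a median of -1.69, against 9.98% of all genes in endothelial-like, 3.89% in fibro-adipogenic-like and 10.5% in mural-like cells. Fibro-adipogenic-like cells, mostly in a Postn-led cluster, held 22.2 and 4.61 CPM (234 and 44 UMIs), log2 -2.25 (-2.77 to -1.80). That is a larger ratio than on day 0 by 1.29 on the log2 scale (difference -1.29, -1.76 to -0.82), at much lower levels. Endothelial-like cells held 56.6 and 7.57 CPM from 50 and 5 UMIs (log2 -2.78, -4.59 to -1.59), and mural-like cells 64.8 and 19.4 CPM from 15 and 7 UMIs (log2 -1.69, -3.28 to -0.36).

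In the main processing, muscle cells differed from these. On day 3 the myogenic-like cells, mostly in a cluster led by Myog and Mymx that marks differentiating and fusing cells, held Nr1d1 at 6.28 and 5.23 CPM, log2 -0.26 (-0.63 to 0.10). The difference from the day 0 value of the Pax7-led cells was 1.79 (1.37 to 2.20). The day 3 value depended on the processing. Over 14 alternative settings it lay between -2.69 and -0.20, and 12 of these stayed inside the interval given. Monocyte-macrophage-like cells had a small difference, 10.1 and 7.69 CPM (log2 -0.40, -0.58 to -0.21). Thra on day 3 was 80.4 and 46.9 CPM in endothelial-like and 106 and 77.8 CPM in fibro-adipogenic-like cells.

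The time difference of Nr1d2 in fibro-adipogenic-like cells was smaller after injury. On day 1 they held 17.0 and 24.0 CPM (log2 0.48, from 28 and 71 UMIs) and on day 3 25.7 and 22.7 CPM (log2 -0.18, -0.44 to 0.09). The day 3 value lay below that of day 0 by 1.49 (difference -1.49, -1.77 to -1.22). Over 7 classes of day 3 the median was 0.17. At least 1.5-fold higher was T cell-like cells (11.4 and 20.6 CPM, log2 0.82, -0.11 to 1.87), where 12.3% of all genes were. At least 1.5-fold lower was dendritic-like cells (4.92 and 3.25 CPM, log2 -0.59, -1.19 to -0.03), where 3.88% of all genes were. On day 1 the median over 4 classes was -0.07.

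Rora in fibro-adipogenic-like cells had the opposite time difference after injury. On day 1 it was lower at ZT16 (71.7 and 49.1 CPM, log2 -0.55, -0.91 to -0.18) and on day 3 too (57.1 and 43.8 CPM, log2 -0.38, -0.57 to -0.20), whereas it was higher on day 0. The differences from day 0 were -0.97 (-1.32 to -0.61) and -0.80 (-0.99 to -0.61). On day 1 Rora was at least 1.5-fold lower in 3 of 5 classes, where 10.4% of all genes in endothelial-like, 11.8% in mural-like and 8.47% in monocyte-macrophage-like cells were. Of the 3, only the monocyte-macrophage-like class had an interval without 0. The endothelial-like value was -0.82 (-1.74 to 0.13) and the mural-like value -0.67. On day 3, 1 of 7 classes was at least 1.5-fold higher, dendritic-like cells (2.58 and 4.67 CPM, log2 0.85, 0.25 to 1.47), where 5.88% of all genes were. Myogenic-like cells had 8.14 and 12.1 CPM (log2 0.57, 0.30 to 0.84), just under the 1.5-fold limit, beside a median of 0.11 over all genes there. Both clusters that hold most of the dendritic-like cells with Rora went the same way, at 15.8 and 37.1 CPM in Ccr7-led cells and 1.58 and 2.93 CPM in Cd209a-led cells.

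On day 3 the medians over classes of Arntl, Per1, Per2, Per3 and Cry1 were nearer 0 than on day 0, and that of Cry2 was farther from it. The classes measured were not the same on both days, and the change was not tested. The median of Arntl over 5 classes was 0.41, with 0 of 5 at least 1.5-fold higher or lower, and fibro-adipogenic-like cells held 13.5 and 10.3 CPM (log2 -0.39, -0.78 to -0.01). Npas2 there was 5.6 and 2.93 CPM. Per2 was higher in 3 of 3 classes (median 1.56), Cry1 in 3 of 6 (0.77), Cry2 in 3 of 4 (0.70, beside 0.22 on day 0) and Tef in 3 of 6 (0.55). Usp2 had a median of 0.41, Hlf of 0.37 and Per3 of 0.57. In fibro-adipogenic-like cells 3 of 5 Per and Cry genes and 2 of 7 output genes were higher, where 4.62% of all genes were. On day 0, 6 of 8 output genes were higher there, beside 8.67% of all genes. Corepressor genes (0 of 6 in fibro-adipogenic-like and myogenic-like cells) and haem genes (1 of 10 lower in fibro-adipogenic-like cells) again mostly stayed within 1.5-fold. So did most genes. Of all genes, 4.62% were higher and 3.89% lower in fibro-adipogenic-like cells, and 8.48% and 1.66% in myogenic-like cells. The largest day 3 medians over classes were 0.30 among the ligases (Mycbp2), 0.36 among the coactivators (Ncoa1) and 0.49 among the haem genes (Cpox).

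All members were lower after injury in fibro-adipogenic-like cells on days 1 and 3 and in myogenic-like cells on day 3, while vessel cells differed by member and day. These comparisons share the day 0 library of their time point. In fibro-adipogenic-like cells on day 3 the log2 values at ZT4 were -2.40 for Nr1d1, -0.77 for Nr1d2 and -1.82 for Rora, where 28.4% of all genes were at least 1.5-fold lower. At ZT16 they were -3.69, -2.27 and -2.62, beside 30.7% of genes. On day 1 they were -2.36, -1.35 and -1.49 at ZT4 (36.1% of genes) and -2.13, -2.18 and -2.46 at ZT16 (45.3%). The day 0 cells were in the Smoc2-led and Pi16-led clusters and the later cells mostly in the Postn-led one, so a day value here compares different cell states.

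In myogenic-like cells on day 3 the values at ZT4 were larger than in fibro-adipogenic-like cells for all 3 members, and at ZT16 for Rora only. Here Nr1d1 was lower by a log2 value of -4.22 (-4.47 to -3.98) at ZT4 and -2.44 (-2.80 to -2.09) at ZT16, Rora of -3.76 and -3.30, and Nr1d2 of -2.19 and -1.89. In this class 36.0% of all genes at ZT4 and 30.9% at ZT16 were at least 1.5-fold lower. The day 0 cells were almost all in the Pax7-led cluster and the day 3 cells mostly in the Myog-led one. A day value here therefore compares different cell states too. The median depth per cell was 5597 UMIs on day 0 and 44245.5 on day 3 at ZT4, and a level in CPM does not tell the number of molecules per cell.

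In endothelial-like cells on day 3, Nr1d1 at ZT4 was lower with a log2 value of -0.78 (-1.23 to -0.38), where 18.4% of genes were at least 1.5-fold lower, and Nr1d2 was within 0.01 at ZT4 and 0.08 at ZT16 of its day 0 level. Mural-like cells had a like value for Nr1d1 at ZT4 (-0.79, -1.69 to -0.08, from 240 and 15 UMIs), where 18.1% of genes were lower. On day 3 they held Nr1d2 at 73.4 and 102 CPM and Rora at 77.8 and 83.1 CPM, beside 66.3 and 99.7 CPM and 94.7 and 95.9 CPM on day 0. On day 1 endothelial-like Rora was lower at both times (-1.44 at ZT4, where 30.9% of genes were, and -2.35 at ZT16, 27.9%), and mural-like Rora at ZT16 (-1.03, -1.63 to -0.52, 23.5% of genes). The endothelial-like cells of days 1 and 3 were mostly in the Apln-led cluster and those of day 0 mostly in capillary clusters. Within the Apln-led cluster the day 1 value of Rora at ZT4 was -0.75 (-2.07 to 0.95), from 6 and 18 UMIs, and that of Nr1d1 -1.18 (-1.92 to -0.36). In the whole endothelial-like class Nr1d1 was lower at ZT4 (-1.35) and higher at ZT16 (10.3 and 25.8 CPM, log2 1.33, 0.86 to 1.77), where 18.2% of genes were at least 1.5-fold higher. Over whole libraries, Rora was 118 and 139 CPM on day 0, 5.65 and 4.77 CPM on day 1 and 14.0 and 15 CPM on day 3. On day 1 at ZT4, 4822 neutrophil-like and 3925 monocyte-macrophage-like cells, with little of it, stood among 10019 kept cells.

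In neutrophil-like and monocyte-macrophage-like cells of the injured muscle the levels of the members differed by day and cluster. Neutrophil-like cells on day 1 had 1.02 and 0.739 CPM of Nr1d1 and 0.509 and 0.370 CPM of Rora, with 0.104% and 0.0962% of thinned cells showing Nr1d1. Monocyte-macrophage-like cells on day 1 had 2.15 and 1.24 CPM of Nr1d1, 9.55 and 5.83 CPM of Nr1d2 and 2.20 and 1.42 CPM of Rora. All 3 were at least 1.5-fold lower at ZT16 in this class, where 8.47% of all genes were, with log2 values of -0.79, -0.71 and -0.63 and intervals below 0. On day 3 the levels were 10.1 and 7.69, 20.1 and 21.1, and 10.1 and 9.50 CPM. They were thus higher than on day 1, by log2 values of 2.23, 1.07 and 2.20 at ZT4 and 2.62, 1.85 and 2.74 at ZT16, where 31.2% and 30.2% of all genes were at least 1.5-fold higher.

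The macrophage clusters of the 2 days were different ones. On day 1 most cells were led by Arg1 and Ppbp (Nr1d1 2.81 and 1.26 CPM, Nr1d2 12 and 6.57 CPM) or by Vcan and Chil3, which mark recently recruited monocytes (Nr1d1 0.669 and 0.326 CPM, Nr1d2 5.53 and 2.36 CPM). On day 3 Folr2-expressing and Ccl8-led cells, a resident-like state, had the highest levels, with Nr1d1 at 16.8 and 16.2 CPM and Nr1d2 at 30.3 and 31.3 CPM. Gpnmb-led cells had Nr1d1 at 9.67 and 7.25 CPM, and Apoe-led and Cx3cr1-expressing cells at 8.16 and 5.21 CPM (log2 -0.65, -0.96 to -0.34). In the Ccl8-led cells the interval of the time difference held 0 for Nr1d1 (-0.05, -0.36 to 0.26) but not for Rora (13.4 and 9.86 CPM, log2 -0.44, -0.83 to -0.07). Within the Arg1-led cluster, present on both days, Nr1d1 at ZT4 was 2.81 CPM on day 1 and 6.05 CPM on day 3, from 69 and 9 UMIs (log2 1.17, -0.08 to 2.11).

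**Figure D5:**
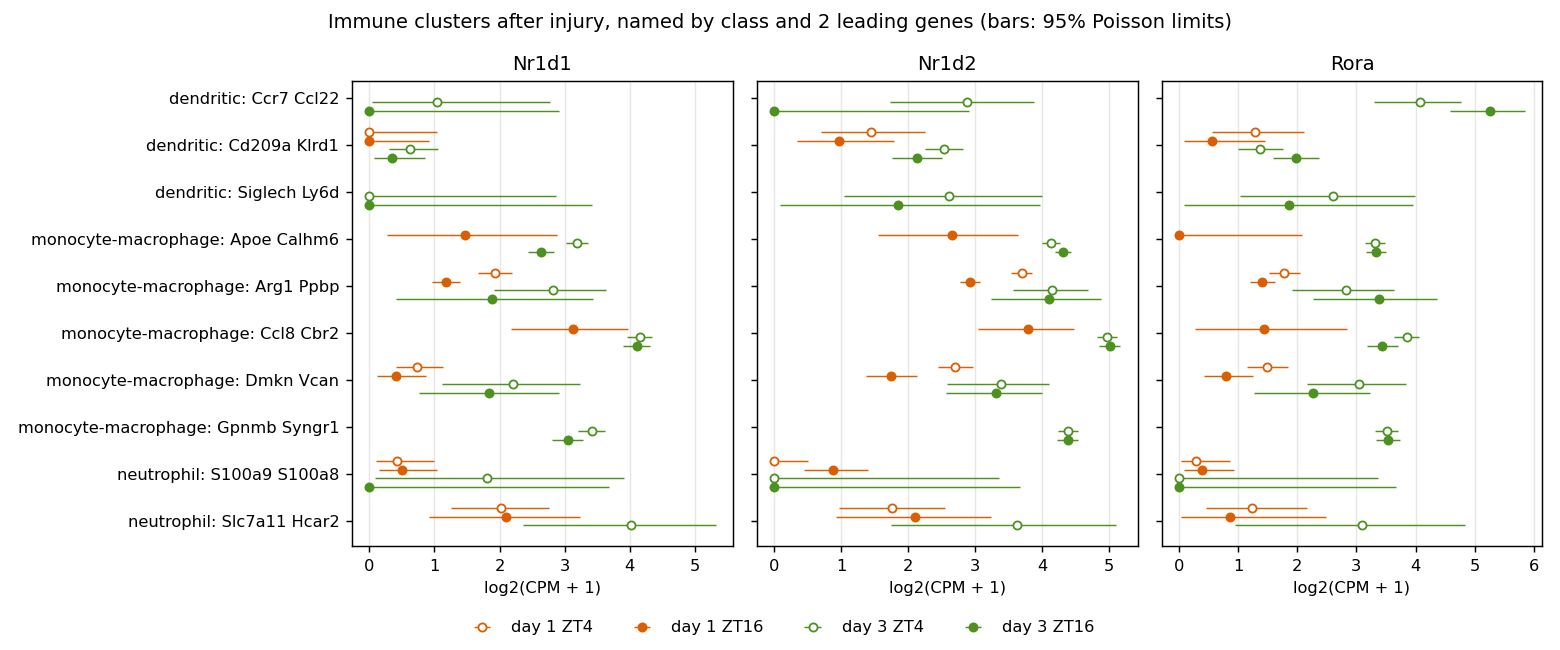
CPM of Nr1d1, Nr1d2 and Rora in 10 immune clusters of the injured muscle on days 1 and 3, each named by its class and 2 leading genes, at ZT4 and ZT16 with exact 95% Poisson limits. Ccl8-led macrophages on day 3 have the highest Nr1d1 (16.8 CPM) and Nr1d2 (31.3 CPM) of the monocyte-macrophage-like clusters. The T cell-like cluster is not drawn.

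REV-ERB target genes of immune cells, which serve inflammation and cell migration, differed in direction among classes. In monocyte-macrophage-like cells on day 3, Il1b held 679 and 668 CPM, Ccl2 532 and 529 CPM, Nlrp3 32.7 and 28.4 CPM and Cx3cr1 308 and 272 CPM. Over 8 classes of day 3 Il1b was higher at ZT16 in 4 and lower in 0 (median 0.68), while the medians of Mmp9 and Il6 were -0.33 and -0.21. In uninjured fibro-adipogenic-like cells 3 of 4 measured genes of this list were lower at ZT16, where 5.8% of all genes were. Among the 3 was Ccl2 (82.3 and 37.6 CPM), and in myogenic-like cells Ccl2 was higher (18.7 and 39.9 CPM).

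In each library of injured muscle the T cell-like cluster had the highest Rora level of the classes measured, although at ZT4 on both days and at ZT16 on day 3 its interval overlapped that of mural-like cells. The T cell-like cluster, which also held natural killer genes such as Gzma and Nkg7, had 143 and 135 CPM on day 1 and 95.6 and 123 CPM on day 3 (log2 0.37, 0.03 to 0.71), with a UMI in 24.6% and 30.3% of cells on day 3. Its Nr1d1 was 8.17 and 5.30 CPM on day 3. The day 0 cluster named mast-like from Cma1 and Mcpt4 also held genes of type 2 innate lymphoid cells, for which RORα is a lineage factor. Gata3 was 263 and 279 CPM there, Il7r 563 and 673 CPM, Il1rl1 (the IL-33 receptor) 179 and 187 CPM, Areg 129 and 263 CPM and Icos 82.4 and 71.7 CPM. The cluster had 97 and 54 cells, so its Rora level (153 and 195 CPM, 78 and 49 UMIs) belongs to a mixture that these counts do not divide. In T cell-like cells on day 3 these levels were lower for Gata3 (112 and 71.0 CPM), Il1rl1 (30.2 and 5.97 CPM), Il7r (274 and 259 CPM) and Areg (73.5 and 23.2 CPM). Icos is not compared with T cell-like cells here. Il17rb and Klrg1, which are also in this gene list, are given for neither class.

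The genes whose levels were most like those of a member were taken over 52 class and library groups from 8897 genes, as Pearson r of log2(CPM + 1). For Nr1d1 they were Thra (0.87), Cuedc1 (0.86), Gnb5 (0.86), Mapre3 (0.85) and Rab18 (0.83). For Nr1d2 they were the clock output factors Tef (0.90) and Dbp (0.89), with Klf9 (0.90), Pde6d (0.85) and Ak3 (0.85). For Rora they were Camk2n1 (0.86), Hlf (0.85), Adgrl1 (0.85), Ormdl3 (0.84) and Abhd8 (0.83). Between members, r was 0.81 for the REV-ERB genes, 0.75 for Nr1d1 and Rora and 0.70 for Nr1d2 and Rora. These groups share libraries and cell types, so r mostly describes which cells hold both genes.

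Likeness of the time difference itself was weaker, over 25 pairs of class and day and 659 genes. The genes nearest to Nr1d1 were Rex1bd (0.64), Ndufs5 (0.61), Mrps24 (0.58), Ufc1 (0.57) and Ndufa11 (0.56), and those nearest to Nr1d2 included H2afj (0.61), Dnajb6 (0.51), Rps21 (0.49) and Dpm1 (0.48). Those nearest to Rora were Eif5 (0.72), Pafah1b1 (0.68), Rdx (0.67), Mbnl2 (0.66) and Rnf10 (0.56). The pairs share 6 libraries and differ in depth.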

How the data were processed

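The deposited files hold raw UMI counts per gene and barcode, 1 matrix for each of 6 libraries, already called as cells by the authors. Cell Ranger is named as version 6.1.2 per the file headers and as version 1.0.0, with the mm10 genome, per the submitters' processing notes. No release of the upstream gene annotation is stated. The members and all gene lists were chosen with earlier results of these data known.

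Barcodes under 200 genes or 500 UMIs, or with over 10% mitochondrial UMIs, were removed. Doublets were scored with scrublet in scanpy 1.11.5, whose automatic threshold marked 0 barcodes in 1 library, so a fixed 0.8% for every 1000 barcodes, those scoring highest, was removed. Cells were clustered without batch correction from 2000 variable genes, list genes left out, with 30 components, 15 neighbours and Leiden resolution 1 (leidenalg 0.10.2). A cluster took the class with at least 3 detected markers (2-fold over the other cells, in 10% of its cells) and the largest share of its markers detected, provided no other class had more markers among its 10 leading genes. Clusters under 20 cells, or under 0.5 of the median depth of their libraries with none of the markers among these genes, stayed unnamed. UMI counts were summed per class and library with numpy 2.4.6, and limits came from scipy 1.17.1. To each UMI count 0.5 was added before a log2 ratio, and CPM was taken without it. List genes were compared from 30 UMIs in both libraries together. Intervals of the difference between days are approximate. The code was checked on counts drawn with known ratios.

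Named genes are the members, the 3 genes of each list with the largest absolute median log2 value over classes on day 0 and on day 3, and the 5 genes most like each member, of which a few are not reported here. Clusters are named by leading genes, and other list genes given with values were picked after these were seen. Alternatives changed the cell filters, doublets, depth, scaling, free RNA, clustering and UMI minimums, and 1, leaving out shallow and mixed clusters, was added after seeing the data. Coordinates are from GENCODE vM21 (90 of 90 genes found) and promoters from RefSeq on GRCm38.p6. Protein sequences were not used here.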

Additional observations from a re-analysis of the deposited data

Results flagged for a closer look

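Rora in fibro-adipogenic-like cells had opposite time differences on different days, as log2 ratios of ZT16 over ZT4: 0.42 on day 0 against -0.55 on day 1 and -0.38 on day 3. Each day has 1 library at each time, so these opposite directions were not tested against the spread between animals. The clusters holding the cells also differed, with Smoc2-led and Pi16-led cells on day 0 and mostly Postn-led cells afterwards. Within the Postn-led cluster the values were -0.51 on day 1 and -0.31 on day 3, and within the Smoc2-led and Pi16-led clusters of day 0 they were 0.48 and 0.17. The median over all genes in the class was 0.07 on day 0, -0.11 on day 1 and 0.01 on day 3. The part of cell state in the opposite directions was not tested.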

How the results depend on the processing

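No paired analysis was possible because the labels give no replicate numbers and each group is 1 library. Nr1d1 on day 0 kept its direction in every setting run for endothelial-like (-3.74 to -3.05), fibro-adipogenic-like (-1.10 to -0.94), myogenic-like (-2.13 to -1.82), mural-like (-2.54 to -2.18) and tenocyte-like cells (-2.24 to -2.00), and Nr1d2 in fibro-adipogenic-like cells lay between 1.25 and 1.35. Medians over classes moved when the classes that could be measured changed. The Nr1d1 day 0 time difference (-1.51) was -2.05 over 7 classes with at least 50 UMIs and -0.96 over 9 with no minimum, and on day 3 (-1.69) it was -0.15 in the single class left after thinning to 1000 UMIs.

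The day medians were less stable. For day 1 over day 0 at ZT4, Nr1d1 (-1.86) was -2.42 with no filter on cells, -1.36 with each library clustered alone, -0.82 with 10% free RNA subtracted and -1.35 at 50 or at no minimum UMIs. Nr1d2 (-0.73) was -0.21 thinned and -0.12 at both other minimums, and Rora (-1.44) was -0.72 thinned, -0.82 as a mean over cells and -0.82 with no minimum. At ZT16, Nr1d1 (0.02) was -1.11 with doublets kept, -1.08 with no filter, 0.88 thinned and -1.06 with no minimum. Nr1d2 (-1.38) was -0.33 thinned and -0.57 with at least 50 UMIs, and Rora (-2.35) was -1.68 at resolution 0.5 and -1.69 with no minimum.

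For day 3 over day 0 at ZT4, Nr1d1 (-1.61) was -0.91 with no filter, -0.87 clustered per library and -0.83 with at least 50 UMIs. Rora (-1.13) was -1.82 with at most 5% mitochondrial UMIs and -1.96 thinned. At ZT16, Nr1d2 (-0.70) reversed to 0.15 thinned and to 0.056 at resolution 0.5, and Rora (-0.29) was -2.19 thinned. For day 3 over day 1, thinning gave 1.85 for Nr1d1 at ZT4 (0.27), 2.42 for Nr1d1 at ZT16 over 1 class (-0.88, reversed) and 0.17 for Rora at ZT16 (1.31). Single values also reversed: Rora in dendritic-like cells at ZT16, day 3 over day 0, was -0.00853 with doublets kept and -0.00106 with no filter. Rora in T cell-like cells at ZT4, day 3 over day 1, was 0.11 thinned, and Nr1d2 in mature muscle-like cells at ZT16, day 3 over day 0, was -0.15 clustered per library. Apart from the changes of class number, the cause was not tested. Depth limits the members in several groups, among them neutrophil-like cells and the endothelial-like and mural-like cells of injured muscle, where each had under 100 UMIs in a library.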

Other observations

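Rorb, the ROR paralogue best known from the nervous system, was 22.3 and 21.1 CPM in uninjured fibro-adipogenic-like cells at ZT4 and ZT16 and 3.61 and 4.19 CPM there on day 3.

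A cluster of uninjured muscle led by Lyve1 and Cd163, genes of resident macrophages, was not given a class name. It held 985 cells at ZT4 and 657 at ZT16. Its Nr1d2 was 32.7 and 68.8 CPM (log2 1.07, 0.82 to 1.32), while its Nr1d1 was 25.4 and 31.6 CPM (log2 0.31, -0.01 to 0.64) and its Rora 20.6 and 14.0 CPM. A cluster led by Csrp3 and Mustn1, also unnamed, held Nr1d1 at 134 and 118 CPM on day 1.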
